A study of Homo sapiens with 6 samples.

Results

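The genes described here are the 42 genes of glutathione synthesis and use, the thioredoxins and peroxiredoxins, the enzymes that supply them with NADPH, and the regulators KEAP1 and NFE2L2. They were chosen by gene name and function from the 50868 genes of the deposited table, and all 42 were found there. Expression was measured by RNA-Seq in HCT116, a line from a human colorectal carcinoma, after transfection with the empty vector pcDNA3.1(+) (pcCon, 3 samples) or with a vector for YY2 overexpression (pcYY2, 3 samples). Both groups thus received a plasmid, and a single cell line was used. The study's general protocol for overexpression collected cells on the day after transfection. The share of cells that took up the plasmid is not given in the sources used here, and each value is an average over the cells of a sample. YY2 and its homolog YY1 are zinc-finger transcription factors, and the study asked which genes YY2 regulates, with ferroptosis, a cell death driven by lipid peroxides, as its subject.

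Glutathione is a tripeptide of glutamate, cysteine and glycine that serves as the main soluble thiol of the cell. Glutathione peroxidases, glutathione transferases and glutaredoxins spend it on peroxides, on reactive compounds and on protein disulfides. A parallel chain runs from NADPH through thioredoxin reductase and thioredoxin to the peroxiredoxins, which remove hydrogen peroxide. Both chains draw on NADPH, and the transcription factor NFE2L2 (NRF2), which KEAP1 marks for degradation, raises many of their genes under oxidative stress. NFE2L2 acts through a DNA element in gene promoters called the antioxidant response element (ARE).

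Between 15158360 and 29572882 reads were counted per sample. The YY2 transcript had an FPKM (reads scaled to a fixed length per gene and to library total) of 2.16 ± 0.397 (SD, n = 3) in the pcCon samples. In the pcYY2 samples it was 11.2 ± 0.333 (SD, n = 3), where the counts do not separate plasmid transcripts from those of the YY2 gene itself. Of 12 colorectal epithelial markers, 8 passed the filter on low values, EPCAM, KRT8, KRT18 and KRT19 among them, while CDX1 and CEACAM5 had no count and VIL1 and LGR5 had at most 2 reads in a sample. Of 12 markers of fibroblasts, endothelium and blood cells, 1 (COL1A1) passed that filter, and the summed FPKM of the list was between 2.70 and 2.89 in pcCon and between 3.02 and 4.34 in pcYY2. The summed FPKM of 16 interferon response genes was between 37.2 and 38.0 in pcCon and between 43.3 and 47.9 in pcYY2, where 1 gene of 6 tested (OAS3) was called higher. The summed FPKM of the epithelial markers was between 315 and 328 in pcCon and between 405 and 442 in pcYY2, where KRT8 and KRT19 were called higher. The part of these differences in the results given here was not tested.

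YY2 overexpression was accompanied by lower transcript levels of NQO1, GCLC, CAT and IDH1 and by higher levels of KEAP1 and TXN2. The other 33 of the 39 genes that could be tested did not pass the threshold. Each called change was below 2-fold, and the largest of the 6 was that of NQO1, at 0.691-fold of pcCon. Differences in read counts were tested by edgeR's quasi-likelihood method in the 12015 genes whose FPKM averaged 1 or more, and a gene was called at an adjusted p (Benjamini-Hochberg) of at most 0.05. The calls made up 15.4% of the tested genes of the set, where 9.37% of all tested genes were called. In the higher direction the share was 5.13% against a background of 4.52%, and in the lower direction it was 10.3% against 4.85%. The median log2 fold change of the 39 genes was -0.04, against 0.0020 over all tested genes, with 17 genes above 0 and 22 below. In 11 of the 39 genes (28.2%) the pcCon and pcYY2 values did not overlap, against 35.8% of all tested genes. Of these, 9 were lower in pcYY2, with a background of 19.9%, and 2 were higher, with a background of 15.9%. An unadjusted p under 0.05 was found for 9 of the 39 genes, against 28.9% of all tested genes. When the replicate number was added as a block, 1 of the 39 (NQO1) was called, against 0.841% of all tested genes. Leaving out single samples also lowered the calls over all tested genes. They fell from 543 higher and 583 lower to 138 to 402 higher and 147 to 419 lower. The calls lost in such fits, given below for single genes, stand beside this general loss. A permutation test on the FPKM of 1 gene, exact and two-sided, cannot go below p = 0.1 in this design. In such bulk cultures, a transcript that fell in every cell and one that was lost from a part of the cells cannot be told apart.

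**Figure D1:**
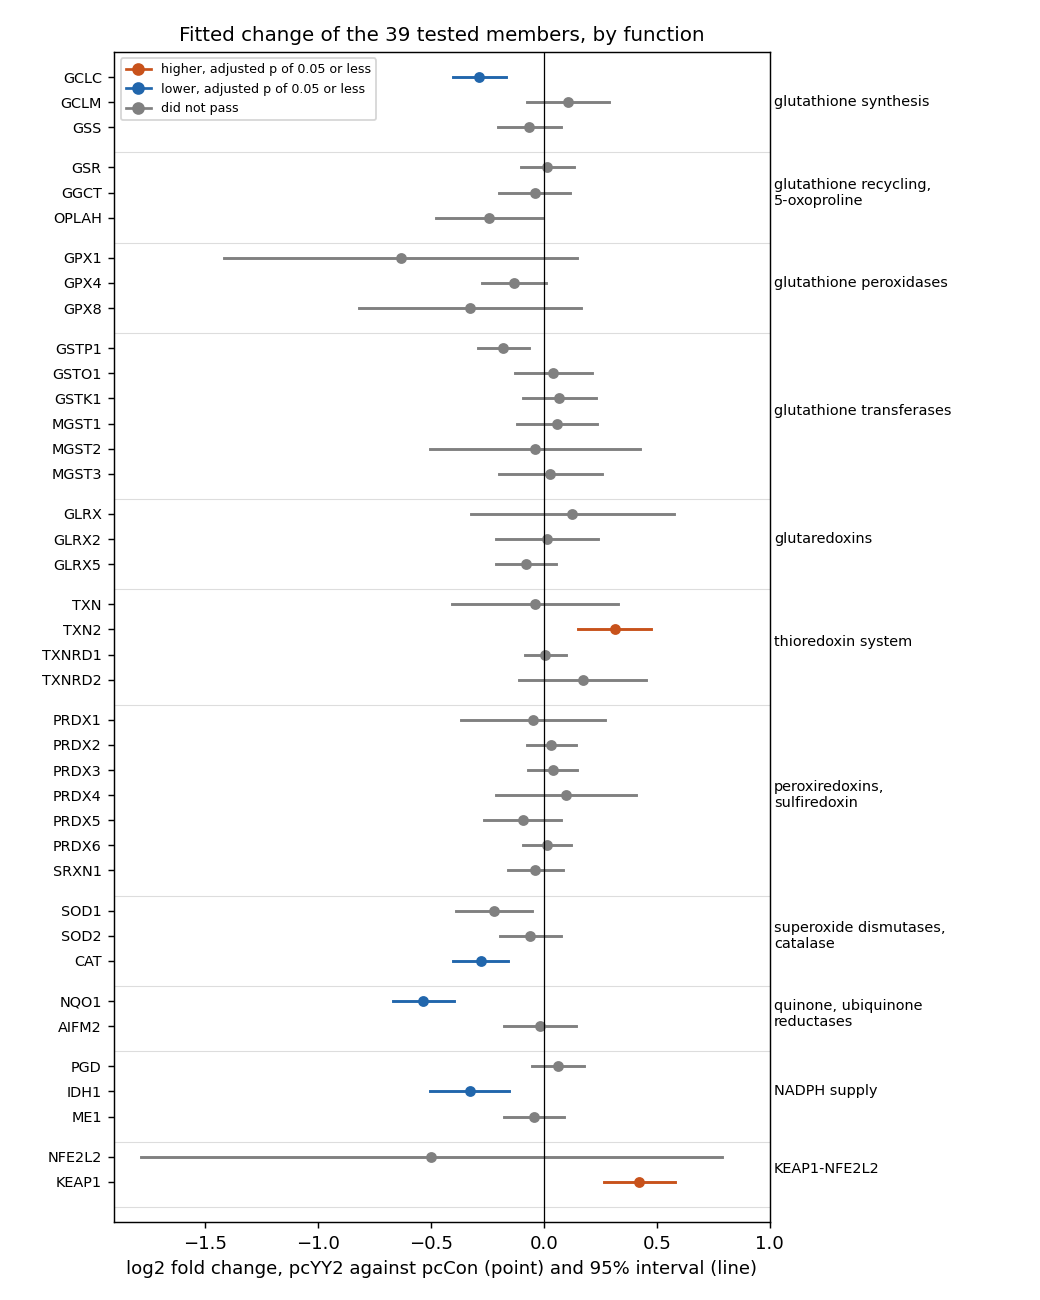
Log2 fold change of pcYY2 against pcCon (horizontal axis, with 0 marked) for the 39 tested genes in rows grouped by function, with points for the edgeR estimate and lines for its 95% interval. NQO1 lies farthest below 0 of the 4 genes called lower, KEAP1 and TXN2 lie above 0, and the lines of NFE2L2 and GPX1 are the longest.

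The FPKM of these genes covered more than 2 orders of magnitude. How the length behind each FPKM was set is not given in the sources used here. Taken with the library totals of the counts, that length exceeds the whole span of the gene for some members, namely GPX1, GPX2, GPX4, GPX8 and GSTP1. The order of genes by FPKM is therefore a description and cannot be read as their order of transcript level. The peroxiredoxin PRDX1 had the highest FPKM, with a mean of 231.9 over the 6 samples. The cytosolic thioredoxin TXN followed at 151.6, PRDX5 at 113.1 and the cytosolic superoxide dismutase SOD1 at 103.7. The range of PRDX1 over the samples lay above that of TXN, whereas the ranges of TXN, PRDX5, SOD1 and PRDX6 each overlapped with the next. The 5 highest genes held 46.7% of the summed FPKM of the set. At the other end of the tested genes stood GLRX, with a mean FPKM of 1.29, and the mitochondrial thioredoxin reductase TXNRD2, with 1.09. The rate-limiting enzyme of glutathione synthesis had a low FPKM, with GCLM at 7.06 and GCLC at 6.74, and their ranges overlapped. In reads, GCLC did not stand low against GSS, whose mean FPKM was 40.2. GCLC had 1911, 1899 and 1558 reads in pcCon, and GSS had 1642, 1609 and 1376. In pcYY2 these were 1285, 2416 and 1616 for GCLC and 1320, 2635 and 1466 for GSS. Of the peroxidases, GPX1 had 27.1 and GPX4 16.2.

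**Figure D2:**
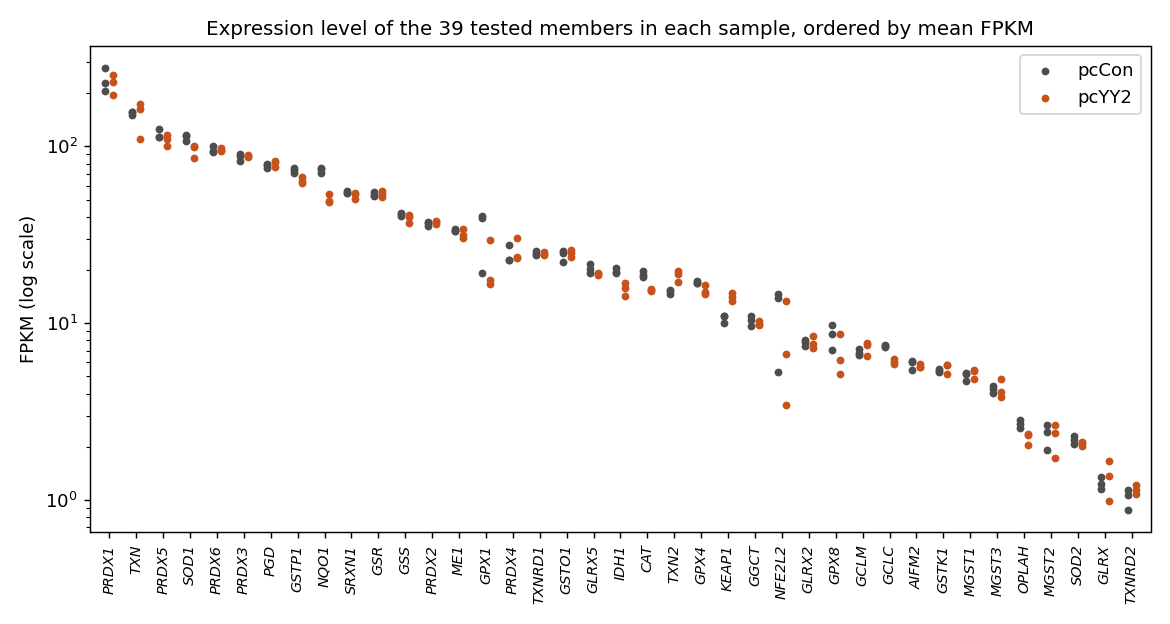
FPKM on a log scale for the 39 tested genes in each of the 6 samples, ordered by mean FPKM, with pcCon in grey and pcYY2 in orange. Mean FPKM ran from 231.9 for PRDX1 to 1.09 for TXNRD2, an order that depends on the length set for each gene. The groups lie apart for NQO1, while they are intermixed for most other genes.

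GPX3, GPX2 and GPX7 lay under the filter on low values. GPX3, the secreted glutathione peroxidase, had 0 reads in every sample, and a count of 0 allows up to 3 counts, which is 0.101 to 0.198 CPM (reads scaled to library total only) in these libraries. GPX2, the gastrointestinal glutathione peroxidase, had 6 reads in pcYY2 sample 2 and 0 in the other samples. GPX7 had 1 read each in pcCon samples 1 and 3 and 0 elsewhere. No fold change can be given for these 3 genes, and such limits cover counting error only.

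In the glutathione synthesis group, GCLC fell while GCLM and GSS did not pass the test. GCLC (ENSG00000001084, GRCh38 chromosome 6 from 53497341 to 53616970, minus strand) encodes the catalytic subunit of glutamate-cysteine ligase, which joins glutamate and cysteine in the first step. Its FPKM was 7.50, 7.44 and 7.35 in pcCon and 6.00, 5.84 and 6.28 in pcYY2. The lowest pcCon sample thus lay above the highest pcYY2 sample, with between 1285 and 2416 reads behind each value. The log2 fold change was -0.29 (standard error 0.0491, 95% interval -0.40 to -0.17, adjusted p = 0.0204 from edgeR). The adjusted p of GCLC rose to 0.0675, 0.0761 and 0.0658 when pcCon sample 1, 2 or 3 was left out, with log2 fold changes from -0.29 to -0.28. GCLM, the modifier subunit that eases feedback inhibition of the catalytic subunit, had an FPKM of 6.65, 7.11 and 6.74 in pcCon and 7.57, 6.53 and 7.77 in pcYY2. Its groups overlapped, and its log2 fold change of 0.11 (95% interval -0.08 to 0.29) had an adjusted p of 0.406. The ratio of the FPKM of GCLC to that of GCLM was therefore 1.13, 1.05 and 1.09 in pcCon and 0.792, 0.894 and 0.809 in pcYY2. This ratio is given as a description, and both groups of values stood apart. GSS, which adds glycine in the second step, had an FPKM of 41.2 ± 0.627 (SD, n = 3) in the pcCon samples and 39.1 ± 2.20 (SD, n = 3) in the pcYY2 samples, with an adjusted p of 0.517.

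The enzymes that recycle glutathione or handle its 5-oxoproline product were not called. GSR, glutathione reductase, which regenerates glutathione with NADPH, had an FPKM of 53.4, 52.7 and 54.9 in pcCon and 51.6, 55.9 and 53.6 in pcYY2. Its groups overlapped, and the 95% interval of its change ran from 0.933-fold to 1.10-fold of pcCon. GGCT, which releases 5-oxoproline, was at 0.973-fold (interval 0.872 to 1.08). OPLAH, the 5-oxoprolinase that returns glutamate, had an FPKM of 2.57, 2.82 and 2.68 in pcCon and 2.34, 2.36 and 2.05 in pcYY2. All pcYY2 values of OPLAH lay below the pcCon values, from 190 to 370 reads. Its log2 fold change of -0.24 (standard error 0.0992) had an unadjusted p of 0.0438 and an adjusted p of 0.16 in edgeR's test, so it was not called.

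No glutathione peroxidase passed the test. GPX4 reduces lipid peroxides within membranes and is the peroxidase that restrains ferroptosis. Its FPKM was 17.4, 16.8 and 16.9 in pcCon and 15.02, 16.4 and 14.7 in pcYY2. The groups did not overlap, and the log2 fold change of -0.13 (standard error 0.0596, 95% interval -0.27 to 0.01) had an adjusted p of 0.198 in edgeR's test. The interval excludes a level below 0.828-fold of pcCon. GPX1, the abundant cytosolic peroxidase, had an FPKM of 39.3, 19.2 and 40.6 in pcCon and 29.4, 17.5 and 16.6 in pcYY2. Sample 2 of pcCon lay among the pcYY2 samples, and the highest GPX1 value within a group was 2.12 times the lowest. Only 5.48% of all tested genes had a larger ratio within a group. The adjusted p of GPX1 was 0.255, and its interval of 0.375-fold to 1.11-fold is wide. GPX8, a peroxidase of the endoplasmic reticulum, had an FPKM of 7.07, 8.70 and 9.71 in pcCon and 5.14, 8.73 and 6.15 in pcYY2, and the groups overlapped (adjusted p = 0.345 from edgeR). 2 rows for GPX1 pseudogenes held 40 to 71 reads per sample, 1.96% to 3.69% of the reads of GPX1 and these rows together, and the sum with these rows was not called either. In the annotation, GPX1 shares 572 exon bases with ENSG00000290318 on the same strand, a gene that was not analysed here.

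Of the 6 glutathione transferases, none was called. GSTP1, the main cytosolic transferase of many tumor cells, had an FPKM of 70.7, 75.9 and 73.7 in pcCon and 62.1, 66.7 and 63.9 in pcYY2. The groups did not overlap, and the log2 fold change was -0.18 (standard error 0.0482) with an adjusted p of 0.0629, just above the threshold. GSTP1 passed in 1 of 17 alternative fits, the one that used library totals without a scale factor. For the other 5 genes, adjusted p values lay between 0.546 for GSTK1 and 0.917 for MGST2. GSTO1, which also reduces dehydroascorbate, was at 1.03-fold (interval 0.916 to 1.16), MGST1, a membrane-bound transferase with peroxidase activity, at 1.04-fold (0.922 to 1.18), and MGST3, a further membrane-bound form, between 0.871-fold and 1.19-fold. MGST2 shares exon bases with MAML3 on the opposite strand, and its value rests on 150 to 221 reads. Whether strand was used in counting is not given in the sources used here, so reads of such pairs cannot be told apart.

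The glutaredoxins reduce protein disulfides and mixed disulfides with glutathione, and GLRX5 acts in mitochondrial iron-sulfur cluster assembly. GLRX5 had an FPKM of 20.3 ± 1.08 (SD, n = 3) in the pcCon samples and 19.1 ± 0.227 (SD, n = 3) in the pcYY2 samples. Although its groups did not overlap, its log2 fold change of -0.08 had an adjusted p of 0.397. GLRX and GLRX2 were at 1.09-fold (interval 0.800 to 1.49) and 1.01-fold (0.864 to 1.18).

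In the thioredoxin system, the mitochondrial thioredoxin TXN2 rose. TXN2 (ENSG00000100348, chromosome 22 from 36467046 to 36481640, minus strand) had an FPKM of 14.7, 15.4 and 15.3 in pcCon and 17.1, 19.0 and 19.8 in pcYY2. All pcYY2 samples lay above those of pcCon. This is a log2 fold change of 0.31 (standard error 0.068, 95% interval 0.15 to 0.48, adjusted p = 0.0366 from edgeR). The call was lost when any of the pcCon samples or pcYY2 sample 2 or 3 was left out, with adjusted p values from 0.0893 to 0.108 and log2 fold changes from 0.27 to 0.32. TXN, its cytosolic counterpart, had an FPKM of 151, 156 and 157 in pcCon and 163, 173 and 111 in pcYY2. Here pcYY2 sample 3 lay below all other samples and the remaining pcYY2 samples above them. The log2 fold change of TXN was -0.04 with all samples and 0.13 (adjusted p = 0.215) without pcYY2 sample 3. TXNRD1, the cytosolic selenoenzyme that reduces TXN, had an FPKM of 24.4, 24.6 and 25.6 in pcCon and 24.5, 24.3 and 25.3 in pcYY2, from 6817 to 13044 reads. Its interval of 0.944-fold to 1.07-fold was the narrowest of the set. TXNRD2 was at 1.13-fold with an adjusted p of 0.382.

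The 7 genes of peroxiredoxins and sulfiredoxin were not called, and in all 7 the groups overlapped. PRDX1, the gene of highest FPKM, had values of 205, 228 and 278 in pcCon and 195, 231 and 255 in pcYY2. The spread of PRDX1 within each group was larger than the difference between the group means of 237 and 227. PRDX2, PRDX3 and PRDX6 were measured tightly, at 1.024-fold (interval 0.949 to 1.10), 1.03-fold (0.954 to 1.11) and 1.01-fold (0.939 to 1.09). PRDX3 is the mitochondrial peroxiredoxin that TXN2 serves, and PRDX6 is the form that uses glutathione. PRDX4, of the endoplasmic reticulum, was at 1.07-fold (0.864 to 1.33), and PRDX5 at 0.937-fold (0.833 to 1.05). SRXN1, the sulfiredoxin that repairs overoxidised peroxiredoxins and a known NFE2L2 target, was at 0.975-fold (0.896 to 1.06).

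Catalase fell, and the superoxide dismutases did not pass the test. CAT (ENSG00000121691, chromosome 11 from 34438934 to 34472060, plus strand) encodes the peroxisomal enzyme that breaks down hydrogen peroxide. Its FPKM was 18.2, 18.7 and 19.6 in pcCon and 15.3, 15.5 and 15.3 in pcYY2. The pcYY2 samples lay close together and below every pcCon sample, a log2 fold change of -0.28 (standard error 0.0513, 95% interval -0.40 to -0.16, adjusted p = 0.0242 from edgeR). The call was lost when any 1 of the 6 samples was left out, with adjusted p values of 0.0506 to 0.082 and log2 fold changes of -0.31 to -0.25. SOD1, which converts superoxide to hydrogen peroxide in the cytosol, had an FPKM of 107, 114 and 116 in pcCon and 86.2, 98.7 and 101 in pcYY2. The groups did not overlap, and the log2 fold change of -0.22 (standard error 0.0711) had an adjusted p of 0.094. SOD2, the mitochondrial form, was at 0.96-fold (interval 0.873 to 1.05), and it shares exon bases with WTAP and ACAT2 on the opposite strand.

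NQO1 showed the largest change among the 6 called genes. NQO1 (ENSG00000181019, chromosome 16 from 69706996 to 69726668, minus strand) reduces quinones with NADPH or NADH and is a classical NFE2L2 target. Its FPKM was 70.4, 74.5 and 75.8 in pcCon and 48.2, 53.7 and 49.2 in pcYY2, with 4221 to 9063 reads behind each value. Every pcYY2 sample was lower than every pcCon sample. This is a log2 fold change of -0.53 (standard error 0.0572, 95% interval -0.67 to -0.40, adjusted p = 0.00557 from edgeR), and NQO1 ranked 77 by p among all tested genes. It was called in all 17 alternative fits, with log2 fold changes from -0.58 to -0.50, and was the only 1 of the 6 called genes for which this held. AIFM2 (FSP1), which reduces ubiquinone and restrains lipid peroxidation apart from GPX4, had an FPKM of 5.86 ± 0.373 (SD, n = 3) in the pcCon samples and 5.74 ± 0.111 (SD, n = 3) in the pcYY2 samples. Its interval of 0.886-fold to 1.10-fold was centred near 1, and AIFM2 shares exon bases with MACROH2A2 on the opposite strand.

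**Figure D3:**
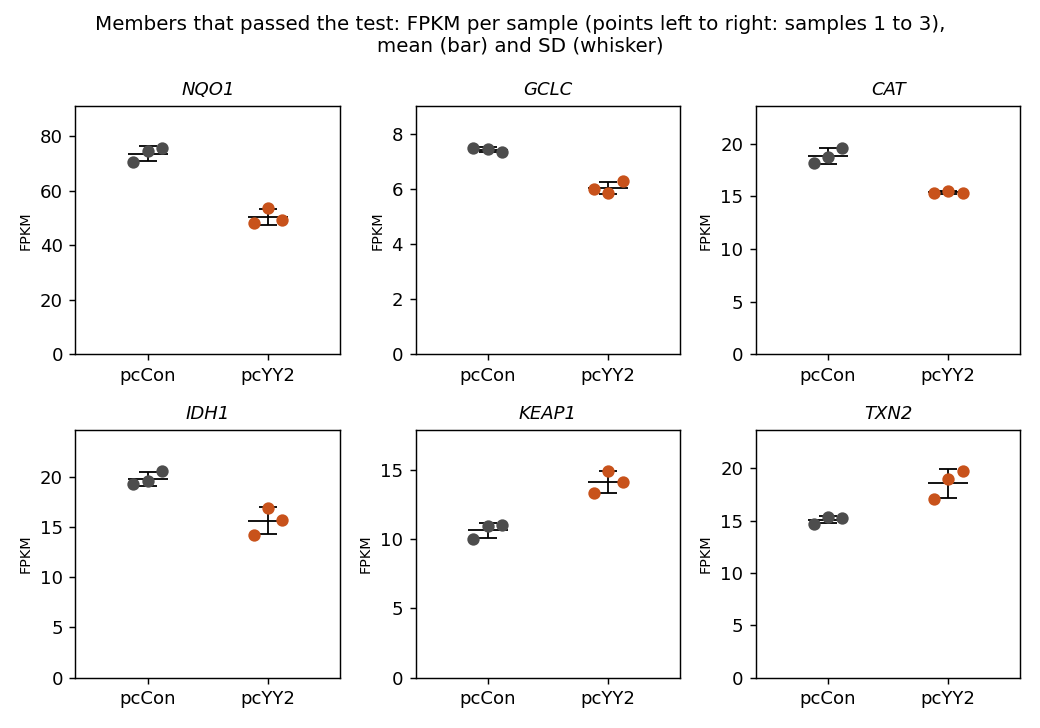
FPKM (vertical axes, from 0) of the 6 called genes in pcCon (grey) and pcYY2 (orange), with a point for each sample, a bar for the mean and a whisker for the SD. The pcCon and pcYY2 points do not overlap in any of the 6 panels, with NQO1, GCLC, CAT and IDH1 lower and KEAP1 and TXN2 higher in pcYY2.

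Of the enzymes that supply NADPH, IDH1 fell. IDH1 (ENSG00000138413, chromosome 2 from 208236229 to 208266074, minus strand) oxidises isocitrate in the cytosol and yields NADPH. Its FPKM was 19.3, 19.6 and 20.6 in pcCon and 14.2, 16.9 and 15.7 in pcYY2, and the groups did not overlap. The log2 fold change was -0.33 (standard error 0.074, 95% interval -0.50 to -0.15, adjusted p = 0.0415 from edgeR). This call was lost without any of the pcCon samples and without pcYY2 sample 1 or 3, with adjusted p values of 0.0581 to 0.116 and log2 fold changes of -0.35 to -0.26. PGD, an NADPH-forming enzyme of the pentose phosphate pathway, had an FPKM of 77.6 ± 2.16 (SD, n = 3) in the pcCon samples and 80.3 ± 3.64 (SD, n = 3) in the pcYY2 samples and was at 1.04-fold (interval 0.964 to 1.13). ME1, cytosolic malic enzyme, was at 0.97-fold (0.884 to 1.06).

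KEAP1 rose, while NFE2L2 varied so strongly between samples of a group that no change could be detected. KEAP1 (ENSG00000079999, chromosome 19 from 10486125 to 10503558, minus strand) had an FPKM of 10.01, 10.9 and 10.97 in pcCon and 13.3, 14.9 and 14.1 in pcYY2. All pcYY2 samples lay above the pcCon samples. Its log2 fold change was 0.42 (standard error 0.0665, 95% interval 0.27 to 0.58, adjusted p = 0.0158 from edgeR). The adjusted p rose to 0.056, 0.0566 and 0.0559 without pcCon sample 1, pcCon sample 2 or pcYY2 sample 3, where the log2 fold change was 0.38, 0.44 and 0.42. NFE2L2 had an FPKM of 5.27, 14.7 and 13.8 in pcCon and 6.74, 13.4 and 3.46 in pcYY2. Both groups thus held high and low samples, and the highest value was 2.79 times the lowest in pcCon and 3.87 times in pcYY2. A ratio larger than 3.87 was found in 1.34% of the tested genes, for which the median ratio was 1.201. The log2 fold change of NFE2L2 was -0.50, with a 95% interval from -1.78 to 0.79 and an adjusted p of 0.586. In the annotation, NFE2L2 shares 3509 exon bases with HNRNPA3 on the opposite strand. HNRNPA3 had 5935, 6519 and 5416 reads in pcCon and 5995, 10590 and 7249 in pcYY2, whereas NFE2L2 had 1140, 3190 and 2490 and then 1226, 4700 and 756. The part of shared reads in the spread of NFE2L2 was not tested. The counts do not say which NFE2L2 transcripts the reads came from.

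**Figure D4:**
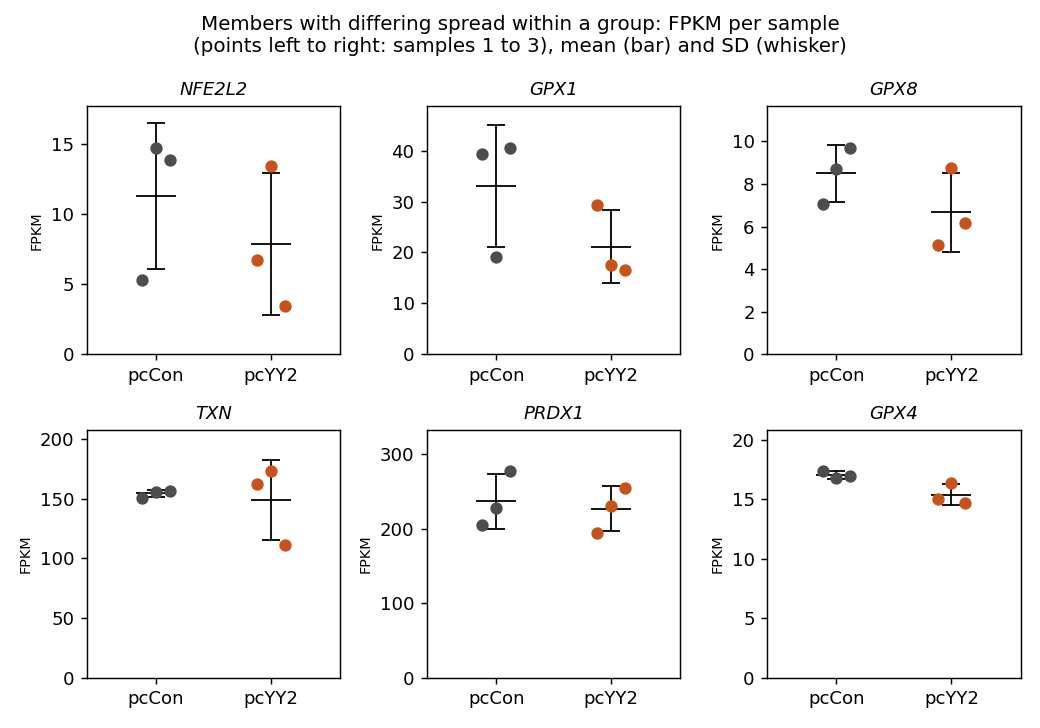
FPKM (vertical axes, from 0) of NFE2L2, GPX1, GPX8, TXN, PRDX1 and GPX4 in pcCon (grey) and pcYY2 (orange), with a point for each sample, a bar for the mean and a whisker for the SD. NFE2L2 runs from 5.27 to 14.7 in pcCon and from 3.46 to 13.4 in pcYY2, 1 pcYY2 sample of TXN lies at 111 under all others, and GPX4 is tight in both groups.

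The NFE2L2 element was looked for near the gene starts, since the set holds many known targets of this factor. RefSeq gave windows from 250 bases before to 50 after the gene start on GRCh38 for 33 of the 42 genes, and these were extended to 1000 bases before the start from the genome. A gene with several starts was counted once if any of its windows held a match. The ARE core was searched as TGACNNNGC on both strands, where its reverse complement reads GCNNNGTCA. In the longer windows, 22 of the 33 members (66.7%) held a match, against 42.1% of the tested genes with a window and 37.4% of all genes with one. In the shorter windows these shares were 33.3%, 19.4% and 16.1%. Of the called genes with a window, NQO1, GCLC, IDH1 and KEAP1 held a match in the longer window and CAT did not. Each of the following stretches of 30 bases is given 5′ to 3′ on the strand of the gene, with the match in capitals. They show first the called genes NQO1 (chr16:69726996-69727025), GCLC (chr6:53545952-53545981), IDH1 (chr2:208255195-208255224) and KEAP1 (chr19:10502783-10502812). They then show genes with a match near their start that were not called, GCLM (chr1:93909445-93909474), GSTP1 (chr11:67583736-67583765), TXNRD1 (chr12:104215670-104215699), AIFM2 (chr10:70132828-70132857) and ME1 (chr6:83431169-83431198).
NQO1: gcagtcacagTGACTCAGCagaatctgagc
GCLC: acaggtcattGCTCTGTCAacacatattta
IDH1: cccctctcgcTGACTCCGCccatcccacgg
KEAP1: gcccggctctGCTTAGTCAtggtgacctgc
GCLM: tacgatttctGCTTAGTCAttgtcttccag
GSTP1: gccggcgccgTGACTCAGCactggggcgga
TXNRD1: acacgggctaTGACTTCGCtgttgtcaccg
AIFM2: cagcacgagtGCTGAGTCAcgccccgcccg
ME1: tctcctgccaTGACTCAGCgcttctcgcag

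The match of NQO1 began 455 bases before the gene start and lay upstream of the annotated gene. Those of GCLC (870 bases before), IDH1 (756 or 143 bases before, from 2 starts) and KEAP1 (31 bases before) were counted from RefSeq starts that lie within the longer GENCODE genes. NQO1, GSTP1 and ME1 held the same letters in capitals, and AIFM2 held their reverse complement. The log2 fold changes of these 4 genes were -0.53, -0.18, -0.04 and -0.02. GCLM and KEAP1 likewise held the same letters, with log2 fold changes of 0.11 and 0.42. Among tested members with a window, 4 of 20 with a match and 1 of 10 without one were called. Over all tested genes with a window, 9.87% with a match and 10.4% without one were called. The motif CGCCATNTT of the Yin Yang factors, searched on both strands as well (reverse complement AANATGGCG), occurred in the longer windows of 2 members, PRDX3 and SOD2 (6.06%), against 13.9% of tested genes, and neither of the 2 was called. The motif TGATGNAA of the amino acid response, also read as TTNCATCA, occurred in 3 members, GPX3, GPX8 and PRDX4 (9.09%), against 11.8% of tested genes. These are matches of letters and do not show binding.

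Other genes of these pathways were examined through 7 lists with 122 tested genes, of which 3 were called higher and 9 lower (9.84%, close to the 9.37% of all tested genes). Of 12 tested genes of cystine supply and glutathione breakdown, 2 were lower and 0 higher, namely both subunits of the cystine/glutamate antiporter. SLC7A11, its transport subunit, was at 0.484-fold (adjusted p = 0.0014), and SLC3A2, its anchoring subunit, at 0.804-fold (adjusted p = 0.0251). Of 13 tested genes of NADPH supply, 3 were lower and 0 were higher, among them H6PD (0.672-fold), which yields NADPH in the endoplasmic reticulum, and MTHFD2 (0.742-fold), a mitochondrial enzyme of folate metabolism. Of 24 tested targets and partners of NFE2L2, 3 were lower and 1 was higher. The export pump ABCC3 was at 0.462-fold (adjusted p = 0.00125), the ferritin light chain FTL at 0.768-fold (adjusted p = 0.0188) and the aldose reductase AKR1B1 at 0.707-fold (adjusted p = 0.0445). The related pump ABCC2 was at 1.31-fold (adjusted p = 0.00376). The median log2 fold change of this list was 0.01. Of 28 tested thioredoxin-fold and disulfide enzymes, only SESN3, a sestrin, was called, at 0.648-fold (adjusted p = 0.0222). Of 16 tested genes of selenoprotein synthesis and further selenoproteins, only LRP8, a receptor for selenoprotein P, was called, at 1.18-fold (adjusted p = 0.0462). In the list of further lipid peroxide and ubiquinone genes, COQ4, which acts in ubiquinone synthesis, was the 1 called of 19 tested, at 1.26-fold (adjusted p = 0.0274). None of 10 tested further glutathione-using enzymes was called. SLC7A11, ABCC3 and ABCC2 were called in all 17 alternative fits. FTL was called in 12 of them, SLC3A2, H6PD and COQ4 in 11, SESN3 in 10, MTHFD2 in 9, AKR1B1 in 8 and LRP8 in 5. These 8 genes were not called with the replicate block, where their adjusted p values lay between 0.0574 (FTL) and 0.0978 (LRP8). The adjusted p values in this paragraph are those of edgeR's quasi-likelihood test.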

How the data were processed

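HCT116 cells transfected with pcCon or pcYY2 were compared by RNA-Seq, with 3 samples for each plasmid. According to their methods, the authors removed low-quality and rRNA reads, used TopHat for mapping to GRCh38 and obtained FPKM from Cufflinks. HTSeq and Bowtie2 appear without a role in the submitters' processing notes. The deposited counts are whole reads per gene. The deposited FPKM equals the count over a fixed length and the library total, within 0.0006434% over 10859 genes. The annotation release and the use of strand in counting are not given in the sources used here, and nothing says that the samples are separate cultures. The p-values set the group difference against the spread between these samples. If samples shared a culture, that spread lacks the differences between cultures, and the p-values may be too small.

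Counts were tested with edgeR 4.0.16 (R 4.3.3, TMM) over 12015 genes whose FPKM averaged 1 or more, with Benjamini-Hochberg adjustment over all of them. Standard errors are the log2 fold change over the square root of F, and intervals are 95%. The alternatives used other scaling, filters and thresholds, limma 3.58.1 on log2(FPKM + 1) or log2(FPKM + 0.1), DESeq2 1.42.0, a replicate block, a robust fit, single samples left out and pseudogene reads added. The fits were tested on simulated data with 200 changed genes. There edgeR recovered 50% of 1.5-fold changes and 95% of 2-fold changes, and 2.91% and 5.94% of its calls were false. The simulation gave all genes the same spread between samples. It held no changes below 1.5-fold, and the 6 called changes were all smaller than that. The members and lists were chosen with earlier results of these data known. Every member is named, with values in each sample for those called, those with an unadjusted p under 0.05 and the highest and lowest in mean FPKM. From the other lists the called genes with the smallest p were named, at most 3 in each direction, and 1 gene is not reported here. Positions come from GENCODE 44, which lacks the deposited identifier of SOD2, and sequences from RefSeq and GRCh38.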

Additional observations from a re-analysis of the deposited data

How the results depend on the processing

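The count of genes called higher (2) and lower (4) depended on the samples included. With single samples left out, 0 to 2 genes were higher and 1 to 3 lower. Over all 12015 tested genes, 138 to 402 were then higher and 147 to 419 lower, against 543 and 583 with all samples. With the replicate number as a block, 0 were higher and 1 (NQO1) was lower, where 0.841% of all tested genes were called. NQO1 had a log2 fold change of -0.53 in that fit, and GCLC, CAT, IDH1, KEAP1 and TXN2 had adjusted p values of 0.0532 to 0.0827. No pairing of samples by number was visible in the expression values. Deviations from the group means correlated at -0.0318 to -0.0175 between samples of the same number and at -0.0310 to 0.0569 between others. Such correlations cannot tell whether samples of the same number were prepared together. An adjusted p of 0.01 or less left 0 higher and 1 lower, and the share of all tested genes at 0.01 was not computed. An unadjusted p under 0.05 in edgeR's test gave 7 lower, and the share of all tested genes in that direction was not computed. In either direction, 9 of the 39 genes had such a p, against 28.9% of all tested genes. CAT was lost without a filter (adjusted p = 0.0532) and IDH1 with a looser filter, an average FPKM of 0.1 (adjusted p = 0.062). Of 663 values of single genes under the alternatives, 604 kept their direction and side of the threshold, 29 lost the call, 1 gained it and 29 changed sign. The sign changes concerned 14 genes that were not called. With upper quartile scaling they were GSR (-0.0012), GLRX2 (-0.0022), TXNRD1 (-0.011) and PRDX6 (-0.0018). TXNRD1 also changed sign with library totals (-0.0065) and with limma at both pseudocounts (-0.0062 and -0.0064), and AIFM2 with the lower filter (0.0056). With single samples left out, log2 fold changes spanned 0 for GSR (-0.017 to 0.045), GGCT (-0.093 to 0.0084), GSTO1 (-0.019 to 0.0799), MGST2 (-0.18 to 0.13), MGST3 (-0.075 to 0.096), GLRX (-0.056 to 0.29), GLRX2 (-0.052 to 0.064), TXN (-0.17 to 0.13), TXNRD1 (-0.013 to 0.0302), PRDX1 (-0.15 to 0.082), PRDX3 (-0.0020 to 0.064), PRDX4 (-0.045 to 0.20), PRDX6 (-0.0070 to 0.052) and AIFM2 (-0.069 to 0.018). The causes were not tested.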
